A study of Rattus norvegicus with 13 samples.

Results

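The genes described here are 10 regulators that restrain cell division or answer to the tumour suppressor p53: the cyclin-dependent kinase (CDK) inhibitors Cdkn1a (p21), Cdkn1b (p27) and Cdkn1c (p57), the stress and arrest genes Ccng1, Gadd45a, Gadd45b and Plk2, the p53 antagonist Mdm2, and the cell-death genes Bax and Bik. They were taken by gene symbol, current or older. Of the 10 genes, 9 were found, each with 1 probe, among the 26962 probes of the array that are not controls. Mdm2 was found on no probe and is not analysed further here. The probe of Cdkn1c did not meet the requirement of at least 2 values in each of the 3 groups, which left 8 genes in the counts below.

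Islets of male Sprague-Dawley rats of about 250 g were cultured at 8 mM glucose and 10% serum, about 200 islets per condition. They were exposed for 18 h to an adenovirus with a CMV promoter and kept for 60 h more. The virus carried beta-galactosidase (AdCMV-bGAL, the control, 5 arrays), hamster Nkx6.1 (AdCMV-Nkx6.1, 5 arrays) or mouse Pdx1 (AdCMV-Pdx1, 3 arrays), so that the controls received a virus as well, and no islets without virus are among these samples. The labels describe the arrays of a group as separate islet isolations, and each array compared the islet RNA with one rat reference RNA pool. A value is therefore a log2 ratio of islet over reference signal, where 0 means equal signal, and ratios of different probes do not rank the genes by expression level.

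CDKs drive a cell through its division cycle when bound by cyclins. Cip/Kip proteins bind these complexes and can block them, and p53, activated by DNA damage and other stress, induces p21, Gadd45a, cyclin G1 and Bax among many targets. Mdm2 is both a target of p53 and the ligase that marks it for degradation. Bax and Bik belong to the pro-apoptotic branch of the Bcl-2 family, which acts on the mitochondria and, for Bik, largely from the endoplasmic reticulum. Adult beta cells rarely divide, and p27 and p57 are known as brakes on their replication. Nkx6.1 and Pdx1 are homeobox factors of beta-cell development.

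The stretches before the starts of Cdkn1a, Ccng1 and Gadd45a are shown because, of the 7 of these 10 genes with a promoter window in the RefSeq table (build GRCr8, 250 bases before to 50 after the start), these 3 held a match to the p53 consensus decamer, the 10-base unit that p53 response elements hold as a pair. The search allowed no mismatch and covered both strands, since the consensus is its own reverse complement. Among all 33469 such windows 7.98% held one. The windows of Cdkn1b, Gadd45b, Plk2 and Mdm2 held none, which says only that these letters are not in the window. Capitals mark the match in the 250 bases before the start, which begins 201, 232 and 48 bases before the start in that order.
Cdkn1a (chr20:7150682-7150931, plus strand): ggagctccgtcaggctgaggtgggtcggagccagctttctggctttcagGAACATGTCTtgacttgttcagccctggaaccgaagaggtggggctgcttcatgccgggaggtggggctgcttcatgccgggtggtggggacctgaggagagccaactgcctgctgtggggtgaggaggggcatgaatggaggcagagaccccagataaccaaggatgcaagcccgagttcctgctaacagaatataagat
Ccng1 (chr10:25684877-25685126, minus strand): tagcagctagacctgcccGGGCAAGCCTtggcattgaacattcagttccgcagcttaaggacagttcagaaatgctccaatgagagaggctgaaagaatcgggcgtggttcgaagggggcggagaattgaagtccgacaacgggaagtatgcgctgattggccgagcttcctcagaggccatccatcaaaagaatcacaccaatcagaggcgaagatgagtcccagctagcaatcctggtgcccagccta
Gadd45a (chr4:97486800-97487049, minus strand): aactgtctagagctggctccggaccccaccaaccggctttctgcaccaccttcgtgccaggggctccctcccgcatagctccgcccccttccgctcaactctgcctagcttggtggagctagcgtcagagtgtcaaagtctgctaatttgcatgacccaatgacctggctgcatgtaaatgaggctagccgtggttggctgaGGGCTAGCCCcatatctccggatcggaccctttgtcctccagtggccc
A single decamer is a description of the sequence, and binding was not tested. None of these 3 genes passed the test in any of the 3 comparisons, although their values, given below, were unlike each other.

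Islet identity was visible on all arrays, with a median log2 ratio over 6 beta-cell marker probes of 3.83 to 4.82 on the bGAL arrays, 3.99 to 7.12 on the Nkx6.1 arrays and 4.23 to 4.91 on the Pdx1 arrays. The probe of Nkx6-1 (2.31 to 3.77 under Nkx6.1, 3.33 to 4.14 under bGAL) is annotated to the rat gene. Whether it detects the hamster cDNA was not tested, so it is no check of that cDNA, and there was no probe named Pdx1. The arrays fell into a set of 5 with 35.4% to 61.1% of probes empty (bGAL 1, 2, 3 and 5 and Nkx6.1 1) and a set of 8 with 0.23% to 15.5% empty (bGAL 4, the other Nkx6.1 arrays and all Pdx1 arrays). Nkx6.1 array 2 correlated with the other arrays at 0.557 to 0.725 across probes, against 0.821 to 0.971 among the other 12. Values within these sets are given beside the results.

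Bik had the smallest p of the 8 genes in both comparisons with bGAL. On the bGAL arrays 1 to 5 its log2 ratios were -2.45, -1.51, -2.28, -1.73 and -1.16. On the Nkx6.1 arrays they were -0.15, 0.19, -0.59, -0.67 and -0.38, and on the Pdx1 arrays -0.47, 0.06 and -0.43. All arrays with either factor thus lay above all control arrays, with a gap between the highest bGAL value and the lowest Nkx6.1 value. Bik encodes a BH3-only protein, a class that promotes cell death by opposing the protective Bcl-2 proteins. The bGAL mean was -1.83 ± 0.534 (SD, n = 5). The Nkx6.1 mean was -0.32 ± 0.349 (SD, n = 5) and the Pdx1 mean -0.28 ± 0.296 (SD, n = 3).

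Bik rose by 1.51 (SE 0.274, 2.84-fold) with Nkx6.1, with adjusted p = 0.0286 in limma over 17965 probes. With Pdx1 the difference was 1.54 (SE 0.317, 2.91-fold) and did not pass the threshold of 0.05 (limma adjusted p = 0.0523). It did pass without bGAL 4 (1.57, adjusted p = 0.0321), bGAL 5 (1.71, adjusted p = 0.0389) or Nkx6.1 2 (1.54, adjusted p = 0.0228). Without bGAL 4 all controls had many empty values and all Pdx1 arrays few, so that fit cannot tell Pdx1 from the array set. In it 432 of all probes passed for Pdx1 against bGAL, beside 98 with all arrays. Both comparisons use the same 5 control arrays. The call under Nkx6.1 was sensitive to single arrays: with each of the 13 arrays left out in turn the difference stayed between 1.35 and 1.67, while the adjusted p ran from 0.0166 to 0.0900 and passed in 4 of the 13 fits. It passed without bGAL 4, bGAL 5, Nkx6.1 2 or Pdx1 2 and was lost without any of the other 9. Quantile normalization gave 1.27 (adjusted p = 0.0847) and scaling of the arrays to one spread 1.19 (adjusted p = 0.0939). Within array sets the difference was 1.70 in the set with many empty values (1 Nkx6.1 array against 4 bGAL arrays) and 1.37 in the set with few (4 against 1). For Pdx1, all of whose arrays had few empty values, the difference from bGAL 4 was 1.45. When the fit held the array set as a block, the differences were 1.54 (adjusted p = 0.215) and 1.58 (adjusted p = 0.515) for Nkx6.1 and Pdx1.

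**Figure D1:**
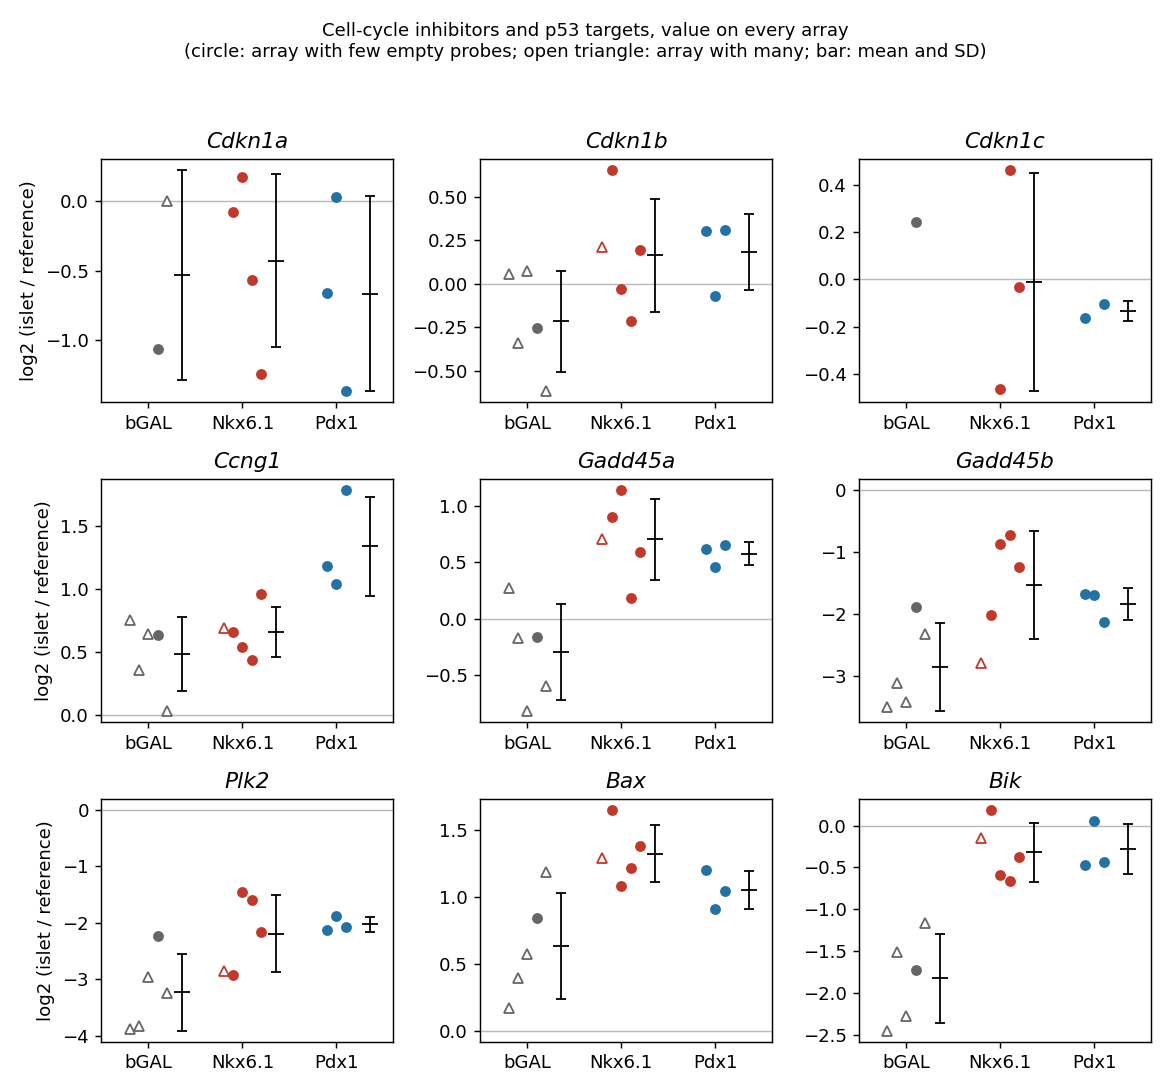
Log2 ratio of islet over reference RNA (vertical axis) for the 9 measured genes on each array, by virus (horizontal axis). Filled circles are arrays with few empty probes, open triangles arrays with many, and black bars the mean and SD of a group. Bik shows all Nkx6.1 and Pdx1 arrays above all 5 bGAL arrays, whereas Cdkn1a has 2 bGAL values and overlapping groups.

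Bax, the effector that permeabilises the outer mitochondrial membrane, had log2 ratios of 0.17, 0.39, 0.57, 0.84 and 1.19 on bGAL arrays 1 to 5. It had 1.29, 1.65, 1.08, 1.22 and 1.38 on the Nkx6.1 arrays and 1.20, 0.91 and 1.04 on the Pdx1 arrays. The Nkx6.1 arrays were mostly above the controls, but bGAL 5 lay above Nkx6.1 3. The difference under Nkx6.1 was 0.69 (SE 0.215, limma adjusted p = 0.178) and under Pdx1 0.42 (SE 0.248, adjusted p = 0.556), so neither passed. Within the sets with many and few empty values the Nkx6.1 difference was 0.71 and 0.49. For Pdx1 it was 0.21 against bGAL 4 and 0.82 under quantile normalization.

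Gadd45a, a stress sensor that binds the replication clamp PCNA and the mitotic kinase complex, had a higher mean with either factor than in the controls, without passing. Its values were 0.27, -0.18, -0.82, -0.16 and -0.60 on bGAL arrays 1 to 5, and 0.71, 0.90, 1.14, 0.18 and 0.59 on the Nkx6.1 arrays. On the Pdx1 arrays they were 0.62, 0.46 and 0.65. A single overlap, bGAL 1 above Nkx6.1 4, kept the Nkx6.1 and control groups from separating, and the Pdx1 arrays all lay above the controls. The difference was 1.00 under Nkx6.1 (SE 0.242, 2.00-fold, limma adjusted p = 0.0877) and 0.87 under Pdx1 (SE 0.280, 1.83-fold, adjusted p = 0.232). Within the array sets it was 1.04 and 0.87 for Nkx6.1 and 0.74 for Pdx1.

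Its paralog Gadd45b, which responds to NF-kB and TGF-beta signals more than to p53, gave differences that moved with the array set. The bGAL arrays held -3.50, -3.12, -3.43, -1.88 and -2.32, the Nkx6.1 arrays -2.79, -2.02, -0.88, -0.73 and -1.24, and the Pdx1 arrays -1.68, -1.69 and -2.13. Among the controls the array with few empty values, bGAL 4, was the highest, and among the Nkx6.1 arrays the one with many, Nkx6.1 1, was the lowest. Over all arrays the differences were 1.32 under Nkx6.1 (SE 0.421, limma adjusted p = 0.187) and 1.02 under Pdx1 (SE 0.486, adjusted p = 0.436). Within the sets they were smaller, 0.30 and 0.67 for Nkx6.1 and 0.05 for Pdx1, and in a fit with the set as a block 0.48 and -0.10. Scaling the arrays to one spread left 0.14 for Pdx1.

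Plk2, a kinase induced by serum and by p53 that acts on centriole duplication, had its highest control value on the same array. Its log2 ratios were -3.87, -3.83, -2.97, -2.23 and -3.25 under bGAL and -2.85, -2.92, -1.45, -1.60 and -2.16 under Nkx6.1. On the Pdx1 arrays, at -2.13, -1.89 and -2.07, all lay above the controls, of which bGAL 4 was the highest. The differences were 1.04 (SE 0.367, limma adjusted p = 0.222) and 1.20 (SE 0.423, adjusted p = 0.279) for Nkx6.1 and Pdx1. Within the arrays with few empty values both were 0.20, and for Nkx6.1 within those with many it was 0.63. Under quantile normalization they were 0.57 and 0.34. For Plk2 as for Gadd45b, the array set moved with the group differences.

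Ccng1, cyclin G1, a p53 target that recruits a phosphatase to Mdm2, had the smallest p of the 8 genes between the factors. The bGAL arrays held 0.75, 0.35, 0.64, 0.63 and 0.03 and the Nkx6.1 arrays 0.69, 0.66, 0.54, 0.44 and 0.96. The Pdx1 arrays held 1.19, 1.04 and 1.79, above every array of both other groups. The means were 0.48 ± 0.292 for bGAL (SD, n = 5), 0.66 ± 0.198 for Nkx6.1 (SD, n = 5) and 1.34 ± 0.394 for Pdx1 (SD, n = 3). Ccng1 differed by 0.86 between Pdx1 and bGAL (SE 0.245, 1.81-fold, limma adjusted p = 0.188) and by 0.17 between Nkx6.1 and bGAL (SE 0.212, adjusted p = 0.712). The direct comparison, Nkx6.1 minus Pdx1, gave -0.68 (SE 0.245, 95% interval -1.21 to -0.15 before adjustment, limma adjusted p = 0.592), so a difference between the factors did not pass over all probes. Within the arrays with few empty values that difference was -0.69, and the difference of Pdx1 from bGAL 4 was 0.71. Without Pdx1 array 3, the highest, the difference between Pdx1 and bGAL was 0.63, and under quantile normalization with all arrays it was 1.31.

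No CDK inhibitor passed a test. Cdkn1a, the classical p53 target, had values on 9 arrays only: -1.06 on bGAL 4 and a value within 0.01 of 0 on bGAL 5, then -0.08, 0.17, -0.56 and -1.24 on Nkx6.1 arrays 2 to 5, and -0.66, 0.03 and -1.36 on the Pdx1 arrays. The 3 groups overlapped widely. A log2 ratio of almost exactly 0 is also what channels without signal could give, and the signals were not analysed here. The differences from bGAL were 0.10 under Nkx6.1 (SE 0.526, limma adjusted p = 0.940) and -0.13 under Pdx1 (SE 0.554, adjusted p = 0.963). Their 95% intervals, -1.08 to 1.29 and -1.38 to 1.12, leave room for a change of p21 of about the size seen for Bax or Gadd45a in either direction. Within the arrays with few empty values, against bGAL 4 alone, the differences were 0.64 and 0.400, so the sign under Pdx1 turned.

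Cdkn1b was measured on all 13 arrays and is known to act as a brake on beta-cell division. Its values ran from -0.62 to 0.07 under bGAL, from -0.22 to 0.65 under Nkx6.1 and from -0.07 to 0.31 under Pdx1, with overlap throughout. The differences were 0.38 (SE 0.215, limma adjusted p = 0.429) and 0.40 (SE 0.249, adjusted p = 0.585), with upper 95% limits of 0.84 and 0.93. Within the array sets they were 0.42 and 0.41 for Nkx6.1 and 0.44 for Pdx1. Cdkn1c, an imprinted gene expressed from the maternal copy, held 1 bGAL value of 0.24, Nkx6.1 values of -0.46, 0.46 and -0.03 and Pdx1 values of -0.16 and -0.10. All 6 values lie on arrays with few empty probes. In the limma fit of those 8 arrays, where bGAL with its lone value took its spread from the other 2 groups, none of its differences passed. They were -0.25 for Nkx6.1 against bGAL (SE 0.437, adjusted p = 0.990), -0.38 for Pdx1 against bGAL (SE 0.464, adjusted p = 1.00) and 0.12 between the factors (SE 0.346, adjusted p = 0.911).

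**Figure D2:**
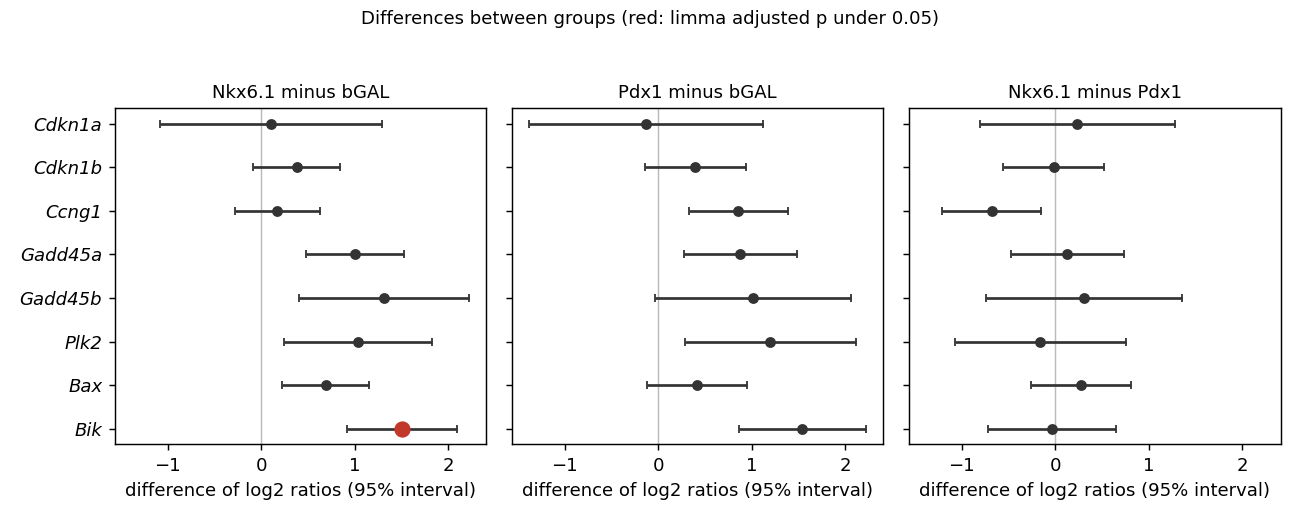
Difference of log2 ratios (horizontal axis) with its 95% interval before adjustment, from the limma fit, for the 8 tested genes in the 3 comparisons. The red point is the 1 adjusted p under 0.05, Bik at 1.51 in Nkx6.1 minus bGAL, and the Ccng1 interval in Nkx6.1 minus Pdx1 runs from -1.21 to -0.15.

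Counted over the 8 tested genes, 1 passed under Nkx6.1, where 0.64% of all 17965 probes passed (115, of which 74 were higher and 41 lower, the latter 0.228%). At an unadjusted p under 0.05 it was 5 of 8 (Bik, Gadd45a, Bax, Gadd45b and Plk2), beside 14.4% of all probes and 5.24% when only higher probes are counted. All 8 differences were above 0, as were 43.7% of all probes, and their median was 0.85, against -0.08 over all probes. The groups did not overlap for 1 of the 8, Bik, and, in that direction, for 3.25% of all probes. Gadd45b and Plk2 enter these counts with the array-set dependence given above. The genes were chosen with earlier results of these data known, so the counts are a description.

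Under Pdx1, 0 of 8 passed in limma, where 0.546% of all probes did (98), and 4 of 8 had an unadjusted p under 0.05 (Bik, Ccng1, Gadd45a and Plk2) beside 11.9% of all probes and 4.09% in the higher direction. Of the 8, 7 were above 0, with 42.3% for all probes, and the median was 0.87 against -0.10. The groups did not overlap for those same 4 genes, all higher under Pdx1, and for 8.02% of all probes in that direction. All Pdx1 arrays had few empty values, as did bGAL 4 alone among the controls. Against bGAL 4 the differences were 1.45 for Bik, 0.71 for Ccng1, 0.74 for Gadd45a and 0.20 for Plk2. With the array set held in the limma fit, 2 of 8 (Bik and Ccng1) had an unadjusted p under 0.05, beside 770 of all 17965 probes. Gadd45b then stood at -0.10. Since both factors are set against the same control arrays, their values are not independent of each other.

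Set directly against each other, the factors differed for 0 of 8 genes in limma (0.217% of all probes, 39 in number) and for 1, Ccng1, at an unadjusted p under 0.05, beside 6.85% of all probes and 3.26% in its direction, lower under Nkx6.1. Its groups did not overlap, which held for 5.98% of all probes in that direction. Of the 8 differences 4 were above 0, beside 52.2% of all probes. The other 7 differences lay between -0.16 for Plk2 and 0.302 for Gadd45b. For Bik it was -0.04 with a 95% interval of -0.72 to 0.65, for Gadd45a 0.13 (-0.48 to 0.73) and for Bax 0.27 (-0.26 to 0.81), so differences between the factors within these limits are not excluded.

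**Figure D3:**
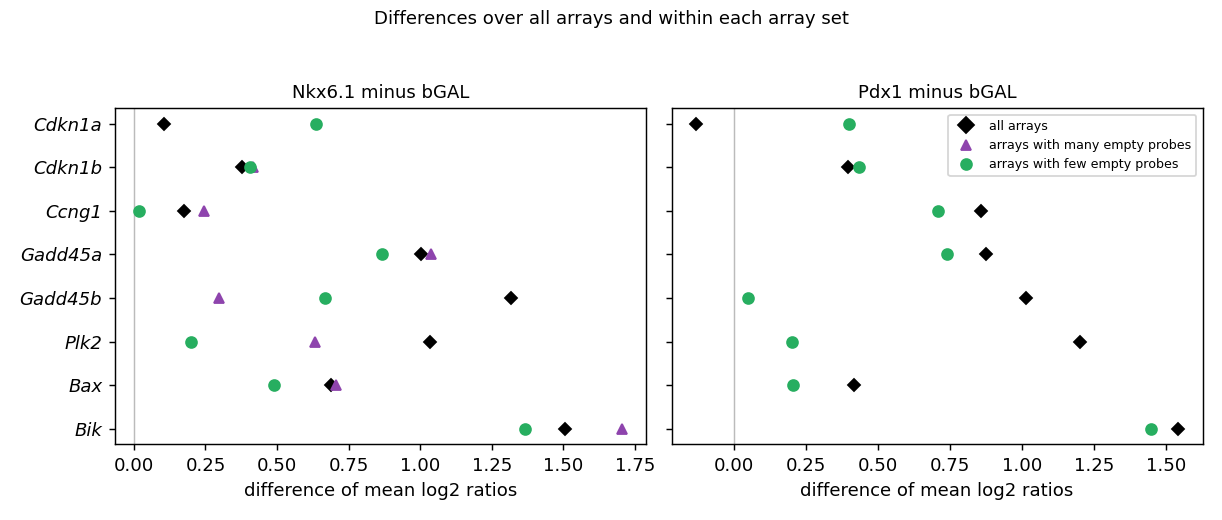
Difference of mean log2 ratios from bGAL (horizontal axis) for the 8 tested genes under Nkx6.1 (left) and Pdx1 (right), over all arrays (diamonds), within the arrays with many empty probes (triangles) and within those with few (circles). Bik and Gadd45a stand near their value over all arrays, at 1.37 and 0.87 under Nkx6.1 within the arrays with few empty probes, whereas Plk2 and Gadd45b under Pdx1 stand there at 0.20 and 0.05.

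A further list of 64 genes of the same pathways (other CDK inhibitors, retinoblastoma proteins, checkpoint kinases, further p53 targets and Bcl-2 proteins) had 43 genes on the array and 37 tested. Of these, 1 rose and 0 fell under Nkx6.1, and 1 rose and 0 fell under Pdx1. Of all probes, 0.64% and 0.546% passed in these comparisons, counting both directions. At an unadjusted p under 0.05, 5 were higher and 1 lower under Nkx6.1, and 2 higher and 1 lower under Pdx1. Over all probes 5.24% and 4.09% were higher and 9.2% and 7.78% lower at that level. The median difference was 0.01 and 0.05, near that of all probes (-0.08 and -0.10) and unlike the medians of the 8 genes above. The 8 genes and this list were chosen with earlier results of these data known, so the contrast is a description.

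The gene that rose with both factors was Cdkn3, a dual-specificity phosphatase that dephosphorylates CDKs and, despite its name, is mostly expressed in dividing cells. Its log2 ratios were -3.81, -3.54, -3.39, -3.68 and -3.60 on bGAL arrays 1 to 5, and -1.77, -1.28, -1.33, -1.72 and -1.76 on the Nkx6.1 arrays. On the Pdx1 arrays they were -1.29, -1.63 and -1.73. The groups were tight and far from overlapping. The rise was 2.03 under Nkx6.1 (SE 0.184, 4.09-fold, limma adjusted p = 4.65e-04) and 2.05 under Pdx1 (SE 0.213, 4.15-fold, adjusted p = 6.20e-04), and both passed with any 1 array left out. They also passed when the array set entered as a block (1.99 for each, adjusted p = 0.0113 and 0.0209). They did not pass under quantile normalization (1.51 and 1.27, adjusted p = 0.0652 and 0.163), nor with arrays scaled to one spread (1.53 and 1.23) or when only the 8 arrays with few empty values were used (2.16 and 2.13).

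The 4 other genes among the smallest p values of the list did not pass. Tp53inp1, a p53-induced nuclear protein of stress responses, was the one whose Nkx6.1 arrays (-0.84 to -0.27) lay above all bGAL (-1.65 to -1.09) and Pdx1 arrays (-1.62 to -0.99). Against bGAL, 3.25% of all probes were higher under Nkx6.1 without overlap. Other genes of the list were also higher under Nkx6.1 than under Pdx1 without overlap. Tp53inp1 differed by 0.79 from bGAL (SE 0.197, limma adjusted p = 0.0953) and by 0.71 from Pdx1 (adjusted p = 0.459). From bGAL it differed by 0.58 under quantile normalization, 0.54 with one spread and 0.50 with the arrays with few empty values alone. Sfn (14-3-3 sigma, a p53 target that holds CDK1 complexes in the cytoplasm) differed by 1.23 under Nkx6.1 (adjusted p = 0.146) and 0.73 under Pdx1 (adjusted p = 0.528). With the arrays with few empty values alone, Sfn stood at 0.52 and -0.091, and under quantile normalization at 0.68 and -0.11. For Cdc25c, the phosphatase that activates CDK1, the differences were 1.13 and 0.98 on one probe (limma adjusted p = 0.126 and 0.293). On its second probe, with only 2 bGAL values (0.066 and -0.0032), they were -0.14 and -0.08. Chek2, a checkpoint kinase upstream of p53, differed by -1.96 under Pdx1 (bGAL n = 3, limma adjusted p = 0.233) and by -0.78 under Nkx6.1 (adjusted p = 0.541). Once the array set was a block, the Chek2 differences were -1.01 under Pdx1 and 0.16 under Nkx6.1.

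Over all 13 arrays, the genes whose profile lay closest to that of Bik were Tacc3, Tpx2 and Mms22l. Closeness was the root-mean-square difference of the values after subtraction of each probe's bGAL mean, over 6052 probes with a symbol and a value on every array, and it came to 0.345, 0.347 and 0.352 (log2). Tacc3 and Tpx2 encode proteins of the mitotic spindle and Mms22l a protein of replication-fork repair. Their differences under Nkx6.1 were 1.54, 1.79 and 1.28 (limma adjusted p = 0.00182, 0.00751 and 0.0276) and under Pdx1 1.53, 1.65 and 1.19 (adjusted p = 0.00407, 0.0296 and 0.0782). They were chosen for this likeness, so it is a description.

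**Figure D4:**
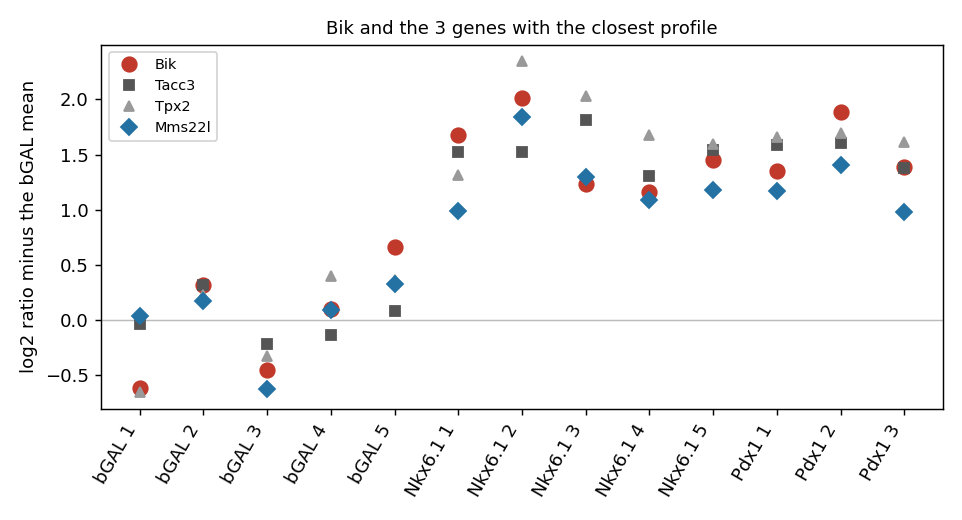
Log2 ratio minus the bGAL mean of the same probe (vertical axis) on each of the 13 arrays (horizontal axis) for Bik (circles), Tacc3 (squares), Tpx2 (triangles) and Mms22l (diamonds). Bik lies at -0.62 to 0.66 on the bGAL arrays and at 1.16 to 2.01 on the arrays with either factor.

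Markers of the cell types that isolated islets can hold were set beside these results. Under Nkx6.1, 2 of 4 tested genes of delta and PP cells fell, beside 0.228% of all probes, and 0 of 5 beta-cell, 0 of 2 alpha-cell, 0 of 4 acinar, 0 of 3 duct, 0 of 6 fibroblast, 0 of 2 endothelial and 0 of 5 macrophage and leukocyte genes passed. At an unadjusted p under 0.05 there were 1 higher beta-cell, 1 higher acinar, 1 lower fibroblast and 1 lower macrophage gene, beside the delta and PP genes. Over all probes 5.24% were higher and 9.2% lower at that level. Under Pdx1, 0 passed in any of these lists in limma, with 1 higher delta or PP, 1 higher acinar, 1 lower duct, 2 lower fibroblast and 1 lower macrophage gene at an unadjusted p under 0.05, where 4.09% of all probes were higher and 7.78% lower. The median of 5 macrophage and leukocyte probes ran from -2.47 to -1.25 on the bGAL arrays, from -4.04 to -1.71 under Nkx6.1 and from -3.43 to -2.16 under Pdx1, and that of 4 fibroblast probes from -1.67 to -0.42, -2.62 to -1.01 and -1.999 to -1.24. For 2 duct probes the median ran from -0.86 to -0.06 under bGAL, -0.93 to -0.11 under Nkx6.1 and -1.27 to -1.10 under Pdx1. For 4 delta and PP probes it ran from 4.40 to 4.89, 1.99 to 4.60 and 4.05 to 4.81. The medians of the alpha-cell and acinar probes overlapped between the groups. In whole islets a smaller share of cells of a type and less RNA per cell cannot be told apart, and the part of these cells in the results was not tested.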

How the data were processed

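RNA from islets (500 ng per labelling) was amplified, labelled with Cy5 and hybridized with Cy3-labelled rat reference RNA to spotted oligonucleotide arrays, per the labels. The deposited log2 values are ratios of islet over reference signal, with array medians between -0.06 and 0.00. That the base is 2 was inferred from their range, and the direction from the dyes. How background and dyes were corrected and why some values are empty is not given in the sources used here. Such ratios carry no signal level, so noise from weak spots could not be judged. The number of arrays limits the precision as well.

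The 22 control spots were left out. Symbols came from the platform annotation, of which 12034 were current, 3713 were updated and 60 were not matched, and 11155 probes had none. A probe needed 2 or more values per group, which 17965 had, and was tested with limma 3.58.1 in R 4.3.3, as 1 model of 3 groups over 13 arrays, two-sided, with Benjamini-Hochberg adjustment over all probes and a threshold of 0.05. The p-values rest on the isolations being separate, as the labels state. The alternatives were 3 scalings between arrays, complete probes alone (9241), the array set (over 30% of probes empty) as a block with and without Nkx6.1 array 2, the 8 arrays with few empty values alone (1 bGAL value sufficed there), the replicate number as a block, and each array left out.

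All members are named. Of the further pathway list, the text names genes that passed and the 4 with the smallest p in each comparison with bGAL. For the member with the smallest p it names the 3 genes of closest profile. The members and lists were chosen with earlier results of these data known. Promoter windows are from RefSeq (GRCr8), and 7 members had one.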

Additional observations from a re-analysis of the deposited data

How the results depend on the processing

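Of the 24 differences of the 8 genes, 495 values under alternatives kept direction and side of the threshold in 449, and 27 changed sign, none of them past the threshold. Bik stayed above 0 against bGAL in all of them (1.19 to 1.67 for Nkx6.1, 1.23 to 1.71 for Pdx1). The causes were not tested.

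The count of all probes passing for Nkx6.1 against bGAL went from 115 to 46 (24 higher) under quantile normalization, 49 (26 higher) with arrays scaled to one spread, 13 with the array set as a block, 0 with few-empty arrays alone (1035 at an unadjusted p under 0.05 in limma) and 39 to 595 with 1 array left out. The number of the 8 genes passing went from 1 to 0 under each of these and under the block without Nkx6.1 2, and was 0 or 1 with 1 array left out. For Pdx1 it went from 0 to 1 (Bik) with probes on all arrays (adjusted p = 0.0354) and ran from 0 to 1 with 1 array left out. All probes for Pdx1 went from 98 to 21 with the array set as a block, 3 with few-empty arrays and 16 to 432 with 1 array left out, and split 56 higher and 24 lower under quantile normalization and 69 and 42 with one spread, against 79 and 19. For Nkx6.1 against Pdx1 they went from 39 (4 higher) to 96 (17 higher) under quantile normalization, 107 (31 higher) with one spread, 89 with the array set block without Nkx6.1 2 and 14 to 81 with 1 array left out. The further pathway genes passing went from 1 to 0 under quantile normalization, one spread and few-empty arrays in both comparisons with bGAL, and ran from 1 to 3 for Nkx6.1 and 1 to 2 for Pdx1 with 1 array left out. The array set block moved the median of all probes by 0.10 for Nkx6.1 and 0.12 for Pdx1 against bGAL.

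Whether the replicate numbers pair the arrays was not settled. Deviations of same-numbered bGAL and Nkx6.1 arrays from their group means correlated at -0.18 to 0.47. Replicates 1 and 4, at 0.47 and 0.33, each had both arrays in the same array set, and the others crossed the sets. These correlations therefore cannot tell pairing from the array set. Between same-numbered Nkx6.1 and Pdx1 arrays they were -0.08, -0.24 and -0.01 for replicates 1 to 3, where replicates 2 and 3 shared a set. Between bGAL and Pdx1 arrays, which all crossed the sets, they were -0.13, 0.05 and 0.07. With the replicate block 21 probes passed for Nkx6.1, 22 for Pdx1 and 19 between the factors, 0 of the 8 genes passed (Bik 1.51, adjusted p = 0.0948), and the sign turned for Cdkn1a under Nkx6.1 (-0.37) and, between the factors, for Cdkn1b (0.11), Gadd45b (-0.13) and Cdkn3 (0.045).

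Other changes of sign follow. Under Pdx1 against bGAL they were Cdkn1a (0.400 with the block, the few-empty arrays and the block without Nkx6.1 2), Gadd45b (-0.10 and -0.20 with the block, with and without Nkx6.1 2), Sfn (-0.11, -0.56 and -0.091 under quantile normalization, one spread and few-empty arrays) and Tp53inp1 (-0.41, -0.44, -0.10, -0.23 and -0.059 under quantile normalization, one spread, the block, few-empty arrays and the block without Nkx6.1 2). Chek2 under Nkx6.1 was 0.16 with the block and with few-empty arrays. Between the factors they were Gadd45a (-0.023 and -0.014), Plk2 (0.23 and 0.403) and Cdkn3 (0.24 and 0.29) under quantile normalization and one spread, Bik (0.0082) under quantile normalization, Plk2 (0.043 and 0.31) with the block with and without Nkx6.1 2, and Cdkn3 (0.027) with few-empty arrays. With 1 array left out, Cdkn1a ran from -0.10 to 0.37 under Nkx6.1, -0.48 to 0.22 under Pdx1 and -0.11 to 0.58 between the factors, and Tp53inp1 from -0.079 to 0.24 under Pdx1. Between the factors Cdkn1b ran from -0.14 to 0.076, Plk2 from -0.35 to 0.018, Bik from -0.16 to 0.13, Cdkn3 from -0.11 to 0.11 and Cdc25c from -0.0070 to 0.29.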
